A study of Arabidopsis thaliana with 4 samples.

Results

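SWEET11 (locus AT3G48740, on chromosome 3) was measured by a single probe set on each of 4 Affymetrix ATH1 arrays of Arabidopsis root RNA. It is 1 of 13286 genes with a named probe set here, found through the only probe set that the platform annotation assigns to that symbol. The gene was chosen by its signal on these same arrays, which was higher in nlp7-1 than in wild-type roots, so its own difference is given as a description and carries no test. The other SWEET genes serve for comparison: 13 further SWEET-numbered symbols had a probe set of their own, and AtVEX1 and SAG29, which the RefSeq gene table lists as AtSWEET5 and AtSWEET15, bring the number of relatives to 15. SWEET12, the closest relative of SWEET11, had no named probe set and is not analysed here.

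The series compared whole roots of wild type (2 samples) with whole roots of the nlp7-1 mutant (2 samples), both in the Col-0 accession. Each sample was a pool of about 60 roots, severed where root and hypocotyl meet at an age given as 5 dai, and the plates (1x MS agar, pH 5.7, 22 °C, days of 16 h) were the same for both genotypes, with no treatment. The mutant is affected in NLP7, which encodes a transcription factor of nitrate signalling, and no named probe set for NLP7 was there to check the genotype labels. The labels do not describe the lesion of nlp7-1. The deposited values are MAS5 signals, an intensity per probe set on a linear scale, and the array medians ran from 97.5 to 101. Probe sets were kept for testing when their mean log2 signal over the 4 samples reached the 40th percentile, a signal of 59.4. Where 2 signals are given for a genotype, replicate 1 comes first. The series calls the 2 samples of a genotype biological replicates, and so small a number of arrays sets the precision of what follows.

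SWEET proteins are membrane uniporters that let sugars move down their concentration gradient. In Arabidopsis they fall into clades, of which the one that holds SWEET11 transports mainly sucrose. SWEET11 and SWEET12 sit in the plasma membrane of phloem parenchyma cells in leaves, where they release sucrose to the cell wall space, and sucrose/H+ symporters such as SUC2 then load it into the companion cell and sieve element for transport to sinks such as the root. Other members, among them SWEET2, SWEET16 and SWEET17, lie in the vacuolar membrane, where they pass hexoses between vacuole and cytosol.

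The SWEET11 transcript stood higher in both mutant samples than in either wild-type sample. Its signal was 87.6 in wild type replicate 1 and 67.0 in wild type replicate 2, and 151 in nlp7-1 replicate 1 and 184 in nlp7-1 replicate 2. The genotypes therefore did not overlap in this direction, as in 23.2% of kept probe sets, and the lower mutant sample was 1.73-fold above the higher wild-type sample. The wild-type mean was 77.3 ± 14.6 and the mutant mean 168 ± 23 (SD, n = 2 each). On the log2 scale the difference was 1.12 ± 0.19 (SE of the fit), or 2.18-fold. Each mutant signal divided by each wild-type signal gave 4 ratios, from 1.73 to 2.75, while the higher replicate exceeded the lower by 1.31-fold in wild type and by 1.21-fold in nlp7-1. In whole roots, more cells that express the gene and more transcript per cell cannot be told apart.

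**Figure D1:**
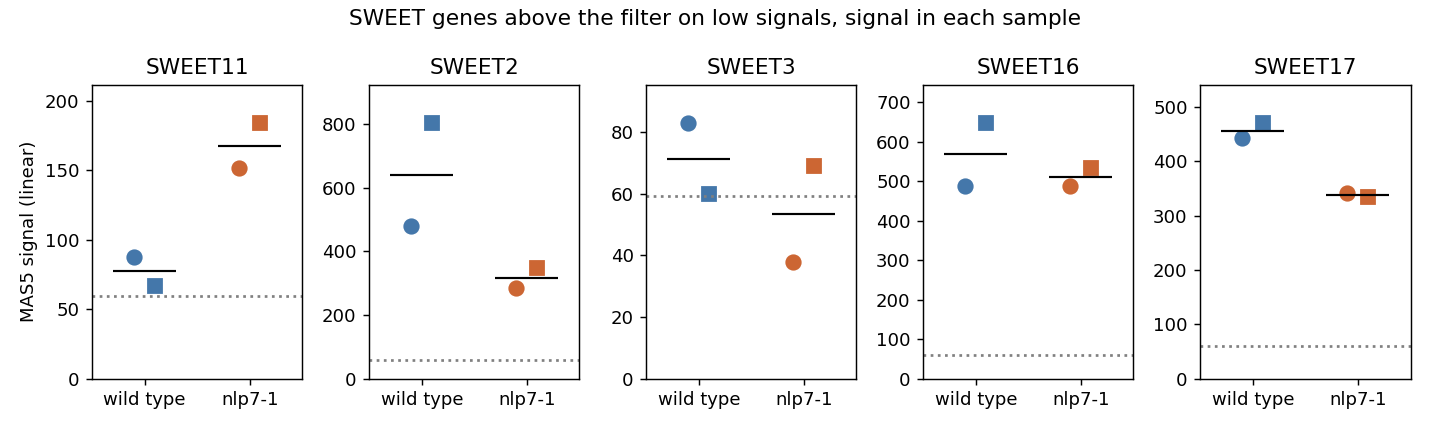
MAS5 signal (linear axis from 0) of SWEET11 and of the 4 other SWEET genes kept by the filter on low signals, in wild type and nlp7-1. Circles are replicate 1, squares replicate 2, horizontal bars the mean of 2 samples and the dotted line the filter level of 59.4. SWEET11 runs from 67.0 to 87.6 in wild type and from 151 to 184 in nlp7-1, and for SWEET2 and SWEET17 the mutant samples are the lower pair.

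The place that SWEET11 took among all probe sets of an array does not depend on how the arrays were scaled. It comes from the same signals that led to the choice of the gene, so it describes them and adds no support. The SWEET11 signal exceeded 47.0% and 42.6% of the probe sets in wild type replicates 1 and 2. In nlp7-1 replicates 1 and 2 it exceeded 59.3% and 64.0%. SWEET11 thus lay just below the array median in wild type and above it in the mutant. No detection calls were used, and the wild-type signals were close to the filter level of 59.4, so how much of the wild-type signal is background was not tested.

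Among the 13648 probe sets kept by that filter, SWEET11 had the 53rd largest increase, and 0.381% had a larger one. Among the 7371 kept probe sets that name a single placed gene it came 26th, and 19 of the 25 ahead of it were on chromosome 1, which holds 25.7% of these probe sets. Its replicates were less alike than those of most probe sets: the replicate difference of SWEET11 was 0.39 in wild type and 0.28 in nlp7-1 on the log2 scale, where the medians over kept probe sets were 0.17 and 0.13. A larger replicate difference was found in 17.0% of kept probe sets in wild type and in 19.8% in nlp7-1. Only 21.7% of kept probe sets had a lower mean log2 signal than SWEET11, so most of those compared were brighter. Whether its replicate differences are usual at its level was not tested.

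The fit that led to the choice of the gene (limma, Benjamini-Hochberg adjusted over all kept probe sets) placed SWEET11 among 224 probe sets that were higher in nlp7-1 at an adjusted p under 0.05, which is 1.64% of those tested. Its adjusted p there was 0.0430. That value is part of why the gene was picked and supports nothing here. It was 0.0739 without the filter, 0.0610 with a variance prior without trend and 0.471 in an unmoderated test, and 0.110 and 0.204 in limma without nlp7-1 replicate 1 and without nlp7-1 replicate 2, when the spread came from wild type alone. With 100 added to every signal before taking logs, the difference shrank from 1.12 to 0.59, or 1.51-fold.

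**Figure D2:**
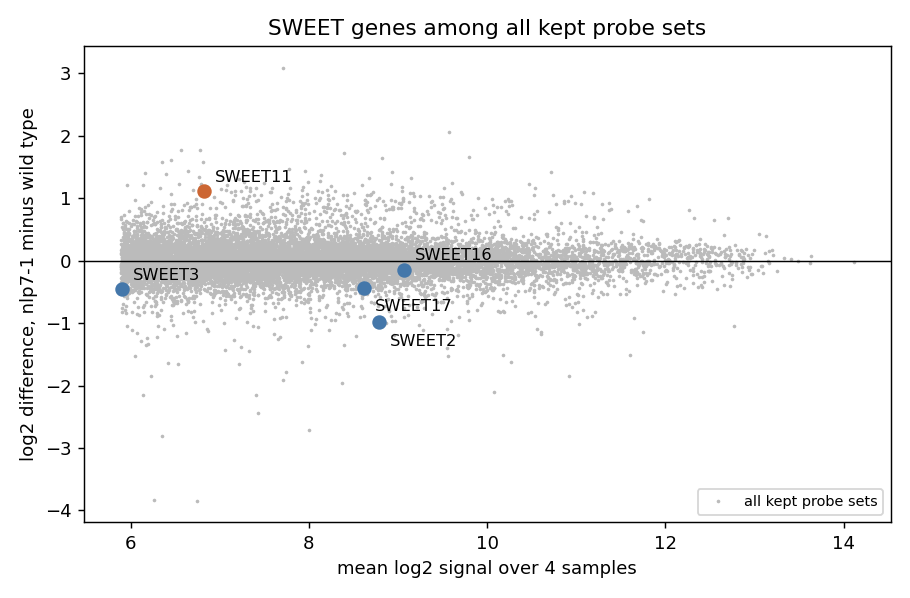
Log2 difference (nlp7-1 minus wild type) against mean log2 signal over 4 samples for the 13648 kept probe sets (grey points). SWEET11 (orange) lies at 1.12, and the 4 other kept SWEET genes (blue) lie below 0, from -0.98 for SWEET2 to -0.14 for SWEET16.

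Of the 15 relatives with a probe set, 4 were kept (SWEET2, SWEET3, SWEET16 and SWEET17), and their log2 differences were below 0 with all samples in the fit. SWEET2, SWEET16 and SWEET17 lay far above the filter level in every sample. SWEET3 lay at it and was kept through its wild-type signals, while SWEET1, higher in nlp7-1, fell just under it, so the signs of the kept genes are not counted as a pattern of the family. In limma 0 of the 4 passed at an adjusted p under 0.05, where 2.27% of all kept probe sets did, and 2 had an unadjusted p under 0.05, where 13.2% did. These genes were looked at with earlier results of the same arrays known, and 4 genes are few.

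SWEET2, a hexose transporter of the vacuolar membrane known in roots for limiting sugar loss to the soil, had the largest difference of the 4 kept relatives. Its signal was 479 and 803 in wild type replicates 1 and 2, and 284 and 347 in nlp7-1 replicates 1 and 2. The mutant samples were the lower pair without overlap, which is so for 20.9% of kept probe sets. The wild-type samples differed widely, and the log2 difference of -0.98 ± 0.25 (SE) did not pass (limma adjusted p = 0.150). Leaving out wild type replicate 1 gave -1.36, and leaving out wild type replicate 2 gave -0.61.

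SWEET17, a fructose transporter of the vacuolar membrane, was the other kept relative whose genotypes did not overlap. It stood at 442 and 470 in wild type replicates 1 and 2 and at 342 and 335 in nlp7-1 replicates 1 and 2. The samples of a genotype were close together, but the difference was small, -0.43 ± 0.11 on the log2 scale (SE), and did not pass (limma adjusted p = 0.165). SWEET16, the other vacuolar transporter of that clade, had overlapping signals of 489 and 647 in the wild-type pair and 489 and 533 in the mutant pair. Its log2 difference was -0.14 ± 0.16 (SE; limma adjusted p = 0.775) and turned to 0.061 without wild type replicate 2. SWEET3, whose signals lay around the filter level at 82.9 and 59.9 in the wild-type pair and 37.9 and 69.1 in the mutant pair, also overlapped (log2 difference -0.46 ± 0.33, limma adjusted p = 0.624, and from -0.89 to -0.03 with a sample left out).

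The other 11 relatives had mean log2 signals under the filter and were not tested. The 5 measured relatives of the sucrose-transporting clade, SWEET9, SWEET10, SWEET13, SWEET14 and SAG29, were all among them, with signals from 4.63 to 50.7 over the 4 samples, so SWEET11, which exceeded the filter level in all 4 samples, was the only measured gene of its clade kept here. SWEET10 had 31.1 and 29.0 in wild type and slightly more, 32.9 and 45.6, in nlp7-1, which is without overlap, and the other 4 overlapped. SWEET13, another sucrose exporter found in leaf phloem parenchyma, had 21.9 and 14.1 in the wild-type pair and 11.2 and 19.7 in the mutant pair. The 5 genes of the clade of SWEET4 to SWEET8, which move mainly hexoses, ranged from 1.09 to 38.0, and SWEET8 alone of them was without overlap, at 7.49 and 14.2 in the wild-type pair and 25.6 and 15.2 in the mutant pair. Higher signals in nlp7-1 without overlap were found in 23.2% of kept probe sets, so SWEET10 and SWEET8 are not read as a result. Whether signals this low exceed background was not tested, so no order is read from them.

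SWEET1, a glucose transporter gene of the plasma membrane, was the remaining untested relative, with signals of 45.7 and 49.2 in the wild-type pair and 65.3 and 59.5 in the mutant pair. Its genotypes did not overlap, where 23.2% of kept probe sets were higher in nlp7-1 without overlap. The mutant mean of SWEET1 was 62.4 ± 4.1 against 47.5 ± 2.5 in wild type (SD, n = 2 each). SWEET1 lies at AT1G21460 in a part of chromosome 1 where its neighbours were raised as well. The median log2 difference of the 10 kept named genes on each side of it was 0.86 (from 0.35 to 1.05), and all 20 were above 0. SWEET1 itself was under the filter and has no fitted difference here, so its rise is not equated with theirs. For the corresponding 20 neighbours of SWEET11 on chromosome 3 the median was -0.09, with 9 above 0, so the stretch around SWEET11 showed no such shift.

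**Figure D3:**
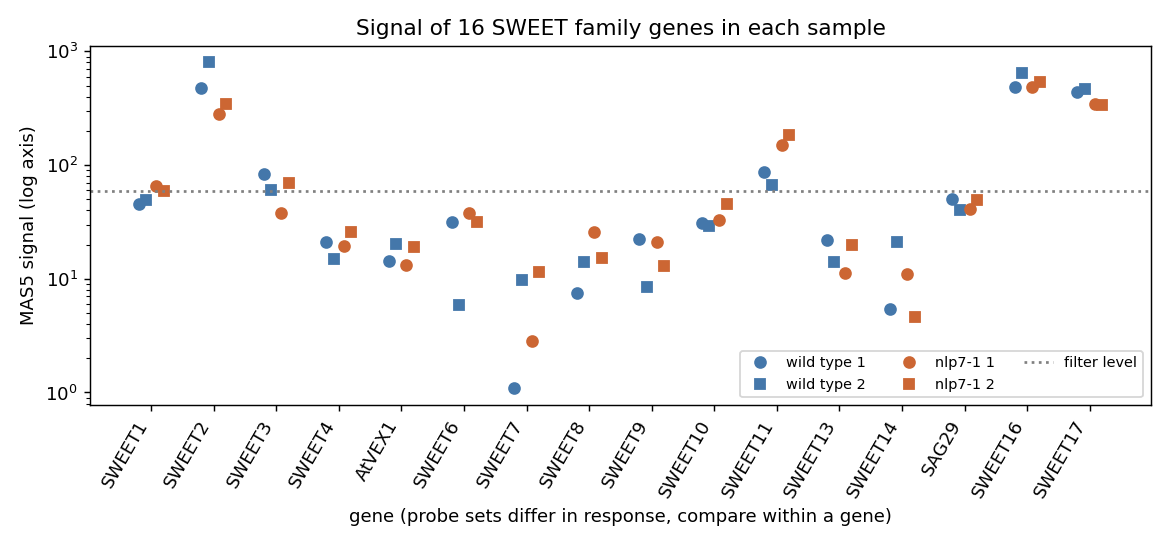
MAS5 signal (log axis) of the 16 measured SWEET family genes in each of the 4 samples. Colours mark the genotype and shapes the replicate, and the dotted line is the filter level of 59.4. Signals can be compared between samples of 1 gene but not between genes, since probe sets differ in response. Of the 16, SWEET11, SWEET2, SWEET3, SWEET16 and SWEET17 were kept, and the other 11 lay between 1.09 and 65.3.

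Apart from AT3G48940, the genes next to SWEET11 had small differences. The 3 kept named genes before it, AT3G48490, AT3G48570 and AT3G48710, had log2 differences of -0.10 ± 0.22, 0.09 ± 0.13 and -0.26 ± 0.14 (SE). The 3 after it, AT3G48760, AT3G48880 and AT3G48940, had 0.0021 ± 0.1130, 0.05 ± 0.19 and 0.54 ± 0.15. In limma 0 of the 6 passed, with adjusted p from 0.169 for AT3G48940 to 0.996 for AT3G48760, where 2.27% of all kept probe sets did. AT3G48940 alone of them had an unadjusted p under 0.05, where 13.2% of kept probe sets did, and the directions of AT3G48490, AT3G48570, AT3G48760 and AT3G48880 turned when a sample was left out. AT3G48940 had signals of 118 and 102 in the wild-type pair and 166 and 154 in the mutant pair, without overlap. AT3G48710 did not overlap either, in the other direction, at 164 and 150 in the wild-type pair and 137 and 125 in the mutant pair. Of all kept probe sets, 23.2% were higher and 20.9% lower in nlp7-1 without overlap.

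Genes that move or cleave sugars gave little to set beside SWEET11, because few had a named probe set. Of 58 entries in lists of sucrose/H+ symporters, monosaccharide transporters, enzymes of sucrose synthesis and cleavage and genes raised by sugar starvation, 12 had one and 6 were kept. In limma 0 of the 6 passed, where 2.27% of all kept probe sets did, and 0 had an unadjusted p under 0.05, where 13.2% did, shares at which 6 genes are too few to read a 0 as a result. A log2 difference below 0 was found in 5 of the 6 (median -0.10, beside 0.00016 over all kept probe sets). None of the 9 sucrose/H+ symporters, SUC2 included, had a named probe set, so they are not analysed here.

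TMT1 and TMT2 carry sugars into the vacuole. TMT1 had signals of 1182 and 1532 in the wild-type pair and 1160 and 1360 in the mutant pair, a log2 difference of -0.10 ± 0.16 (SE), which turned positive without wild type replicate 2 (0.088). TMT2 had 198 and 160 in the wild-type pair and 157 and 139 in the mutant pair, without overlap (-0.27 ± 0.16, limma adjusted p = 0.540). Lower signals in nlp7-1 without overlap were found in 20.9% of kept probe sets. The other 5 measured monosaccharide transporters, TMT3 and the STP genes AT5G61520, AT1G34580, AT5G26250 and AT3G19940, were under the filter.

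Among the 3 kept enzyme genes, cwINV6, named as a cell wall invertase, had the largest difference, with signals of 131 and 120 in the wild-type pair and 74.9 and 108 in the mutant pair (-0.48 ± 0.21, limma adjusted p = 0.397). Like TMT2, cwINV6 was lower without overlap, which makes 2 of the 6 kept sugar genes, beside 20.9% of kept probe sets. A vacuolar invertase gene, AT1G62660, differed by 0.0009 ± 0.0803 on the log2 scale, with signals of 4131 and 4068 in the wild-type pair and 3989 and 4218 in the mutant pair. AT2G35840, which encodes a sucrose-phosphatase of the last step of sucrose synthesis, had -0.03 ± 0.14. ATSPS4F, a sucrose-phosphate synthase gene, was under the filter, with overlapping signals of 14.6 and 10.04 in the wild-type pair and 21.3 and 14.0 in the mutant pair. The sole measured gene of the sugar starvation list, AKINBETA1, a regulatory subunit of the SnRK1 kinase, varied more within than between genotypes, at 797 and 1442 in the wild-type pair and 848 and 1188 in the mutant pair.

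**Figure D4:**
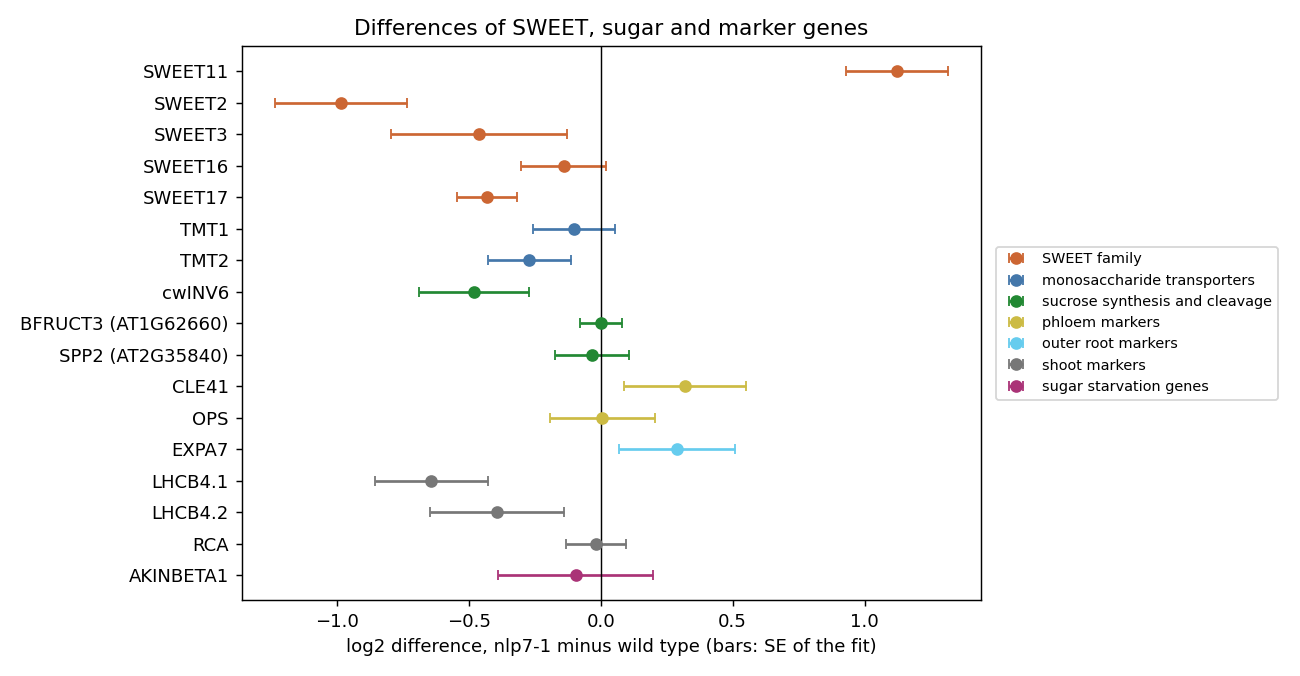
Log2 difference, nlp7-1 minus wild type, with bars of 1 SE of the fit, for SWEET11, the 4 other kept SWEET genes and every kept member of the sugar and marker lists. SWEET11 is at 1.12 ± 0.19, and the other SWEET, sugar and marker genes lie between -0.98 (SWEET2) and 0.32 (CLE41).

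Markers of the tissues that could carry SWEET11 were compared next. Of 20 phloem markers 3 had a named probe set, and neither SUC2 nor APL, which define companion cells and phloem identity, was among them. CLE41, a peptide gene of the phloem, had overlapping signals of 94.7 and 63.8 in the wild-type pair and 89.9 and 105 in the mutant pair (log2 difference 0.32 ± 0.23, limma adjusted p = 0.625), and OPS, which promotes protophloem differentiation, had 0.0056 ± 0.1990. The third, SWEET13, was under the filter. The summed signal of the 3 was 188 and 137 in the wild-type pair and 169 and 187 in the mutant pair, so the genotypes overlapped, and with so few markers a change in the amount of phloem was not tested. None of the 10 xylem and cambium markers had a named probe set. Of 9 outer root markers, AT1G62500 was under the filter and EXPA7, a root hair expansin gene, had 0.29 ± 0.22.

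Leaves express SWEET11 strongly, so photosynthesis genes were listed as markers of shoot tissue left on the roots. Whether their signal came from shoot tissue or from the roots themselves was not tested. Of 12 shoot markers 3 were measured, and their summed signal was 813 and 1009 in the wild-type pair and 664 and 793 in the mutant pair, lower in both mutant samples. LHCB4.1 had a log2 difference of -0.64 ± 0.21 (limma adjusted p = 0.265), LHCB4.2 -0.39 ± 0.25 and RCA -0.02 ± 0.11. In limma 0 of the 3 passed, where 2.27% of all kept probe sets did. With 3 genes, a 0 is not read as a result. LHCB4.1 alone had an unadjusted limma p under 0.05 (0.0223), where 13.2% of kept probe sets did. It alone was lower in nlp7-1 without overlap, which is so for 20.9% of kept probe sets. LHCB4.1 passed in limma without wild type replicate 1 (-0.90, adjusted p = 0.0298), with the spread taken from nlp7-1 alone. The lower sum thus came from LHCB4.1 and LHCB4.2 and not from RCA, and the part of shoot tissue in the SWEET11 difference was not tested. A 25S rRNA probe set, from the 64 controls, had 5005 and 5318 in the wild-type pair and 6180 and 6248 in the mutant pair. It was higher in nlp7-1 without overlap, as were 23.2% of kept probe sets. Controls were not in the fit, and the part of this one in the SWEET11 difference was not tested.

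The named genes whose pattern over the 4 samples was most like that of SWEET11 were found by the root mean square distance between log2 signals, each gene centred on its own mean. Over 7370 other kept named probe sets the median distance was 0.60, and the 8 nearest lay at 0.034 to 0.13. AT1G26660 was nearest, at 154 and 111 in the wild-type pair and 254 and 309 in the mutant pair, followed by AT1G22330, at 82.3 and 64.8 in the wild-type pair and 148 and 187 in the mutant pair. The next were AT1G22040, AT1G22570, AT1G50060, AT3G19430, AT1G19380 and AT1G26650. All 8 had wild type replicate 2 as the lowest sample, as SWEET11 did, a likeness that the measure itself selects for. With 4 samples many genes can look alike, and the list describes these arrays only.

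Of these 8 genes, 7 were on chromosome 1 and 1, AT3G19430, was on chromosome 3. For 5 of them (AT1G26660, AT1G22330, AT1G22040, AT1G22570 and AT1G26650) the 20 surrounding kept genes had median log2 differences from 0.82 to 0.90, like the neighbours of SWEET1. For AT1G50060, AT3G19430 and AT1G19380 the neighbours' medians were -0.02, 0.08 and -0.04, close to the -0.09 found around SWEET11. AT3G19430 had signals of 298 and 181 in the wild-type pair and 432 and 535 in the mutant pair, and AT1G50060 had 191 and 118 in the wild-type pair and 298 and 330 in the mutant pair.

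**Figure D5:**
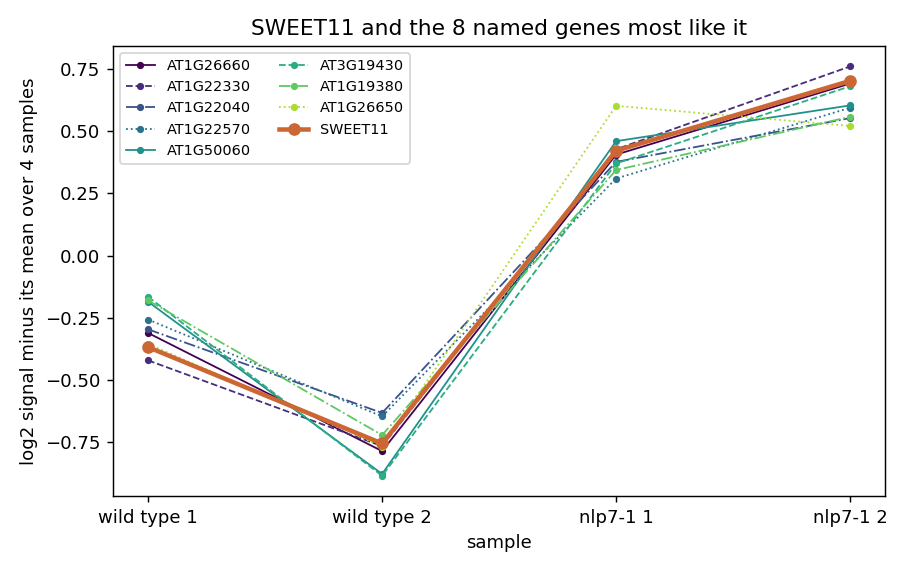
Log2 signal minus its mean over the 4 samples for SWEET11 (thick orange line) and the 8 named genes with the smallest distance to it (thin lines). Lines join the samples of 1 gene for reading only. SWEET11 runs from -0.76 in wild type replicate 2 to 0.70 in nlp7-1 replicate 2, and the 8 genes follow it within a distance of 0.13.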

How the data were processed

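Per the submitters' processing notes, the deposited values are MAS5 signals, an intensity per probe set on a linear scale. No version is stated. The trimmed mean was 250.0 on every array, so arrays had been scaled alike. After 64 controls were set aside, 22746 probe sets remained. The platform annotation gives a single gene for 13513 of them, and 13436 were placed through RefSeq's gene table (TAIR10.1), used for names and gene order only.

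Signals were taken to log2 without a pseudocount. Probe sets whose mean log2 reached the 40th percentile, a signal of 59.4, were kept. On these 13648, limma 3.58.1 (R 4.3.3) compared the genotypes through lmFit and eBayes with a trended prior. Tests were two-sided and p-values were adjusted by Benjamini-Hochberg over all of them. The fit was run on data simulated from its own variance prior with independent noise, which checks the code and not its assumptions. Lists were read by locus, with the brightest probe set per gene. The named genes were SWEET11, the other SWEET genes, up to 6 measured genes per sugar list and 4 per marker list, 3 neighbours on each side and the 8 most alike. The gene, lists and rules were chosen with earlier results of these data known. The medians over 20 neighbours and the clade grouping were added after the values were seen. Alternatives changed the filter, the pseudocount (32 or 100), the normalization (quantile, median centring) and the variance estimate, added the replicate block, or left out each sample in turn.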

Additional observations from a re-analysis of the deposited data

How the results depend on the processing

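The SWEET11 log2 difference of 1.12 was 0.871 with a pseudocount of 32 and 0.594 with 100, moves built in by adding a constant to low signals. It was 1.102 with quantile normalization and 1.119 with median centring, and lay between 0.929 and 1.317 when 1 sample was left out. The count of 310 probe sets was 116 under an untrended variance prior and 0 in the unmoderated test, where 1371 had an unadjusted p under 0.05. It spanned 14 to 770 over the fits without 1 sample, where the spread comes from 1 genotype alone. Of the other SWEET genes 0 passed in the fit as designed and 0 to 1 with a sample left out (SWEET2, without wild type replicate 1). Over all alternatives the adjusted p of SWEET11 ran from 0.00188 with the replicate block to 0.471 in the unmoderated test. Of sugar genes and phloem markers 0 passed in limma or in the unmoderated test under the alternatives run. The titles give replicate numbers but no shared batch. Differences between replicates 1 and 2 correlated between genotypes at 0.436 across probe sets, a hint from the data and not the design. With the replicate block 1290 probe sets passed, 2 other SWEET genes among them (SWEET2, adjusted p = 0.000414, and SWEET17, 0.0280). LHCB4.1 (0.00324) and AT3G48940 (0.02945) passed there as well. Of 30 named genes besides SWEET11, only AT1G26660, AT1G22330, AT1G22040 and AT1G26650 passed in the fit as designed. These 4 were picked for their likeness to SWEET11. For the other named genes, keeping the side of the threshold means staying uncalled. Of 266 values of the 30 under alternatives that keep all samples, 241 kept their direction and side of the threshold. Of the rest, 12 no longer passed, all from those 4 genes, and 8 newly passed. Of 120 with a sample left out, 86 kept both, 8 no longer passed, 7 newly passed and 19 turned. With all samples kept the direction turned in 5, all of differences near 0: AT1G62660 was -0.0405 with quantile normalization and -0.0033 with median centring, OPS -0.0061 with quantile normalization, and AT3G48760 -0.0053 and -0.0020. With a sample left out, ranges that cross 0 were -0.343 to 0.061 for SWEET16, -0.287 to 0.088 for TMT1, -0.039 to 0.041 for AT1G62660, -0.139 to 0.071 for AT2G35840, -0.132 to 0.143 for OPS, -0.030 to 0.609 for EXPA7, -0.055 to 0.022 for RCA, -0.523 to 0.333 for AKINBETA1, -0.367 to 0.163 for AT3G48490, -0.052 to 0.237 for AT3G48570, -0.049 to 0.053 for AT3G48760 and -0.182 to 0.281 for AT3G48880. The cause of these turns was not tested. Whether the SWEET11 probe set also reads SWEET12 transcripts was not tested.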
